A study of Mus musculus and Homo sapiens with 176 samples.

Results

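The genes described here are 44 mouse genes whose products build synaptic vesicles, fuse them with the presynaptic membrane, organise the active zone where they are released, or retrieve them afterwards. They were chosen by symbol, with earlier results of these data known. All 44 were found among the 24854 features (24318 symbols) of each deposited table. RNA was sequenced from nuclei sorted by NeuN, an antigen of the neuronal RNA-binding protein Rbfox3, from cerebellum and prefrontal cortex of C57BL/6 mice aged 8 to 10 weeks, with no transgene or treatment in the labels. The 4 groups were cerebellar NeuN+, cerebellar NeuN-, prefrontal NeuN+ and prefrontal NeuN- nuclei, with 2 libraries each, and the titles place all 8 libraries in 1 mouse, M3. The same series also holds histone mark profiles of such nuclei, which were not analysed here.

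Neurotransmitter is released when a vesicle SNARE protein (synaptobrevin, from Vamp genes) zips together with syntaxin and Snap25 on the plasma membrane. Complexins clamp and promote this step, Munc13 and CAPS proteins (Unc13 and Cadps genes) prime vesicles for it, and Rim, Bassoon, Piccolo and ELKS proteins (Rims, Bsn, Pclo and Erc genes) form the active zone scaffold that holds primed vesicles near calcium channels. Many of these families have several members, and different brain regions are known to use different ones: cerebellar granule cells, the most numerous neurons of that region, are known for the Munc13 isoform of Unc13c.

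Levels are given as FPKM (fragments scaled by transcript length and sequencing depth), multiplied by 1 factor per library (0.878 to 1.05) and called scaled FPKM below. Because FPKM is a level per transcript length, levels of different genes may be set side by side. A call means a limma adjusted p under 0.05 over the 14376 features that reached 1 FPKM in 2 or more libraries, on the scale log2(scaled FPKM + 1), and every fold given below is on that scale, which understates changes of low genes. Of the 44 genes, 43 met that filter. Doc2b, a calcium sensor of spontaneous release, did not: it had 0.230 and 0.216 scaled FPKM in cerebellar NeuN+ nuclei and 0.199 and 0.162 in cerebellar NeuN- nuclei, and at most 0.0191 in any prefrontal library. Bsn and Rims3 reached 1 FPKM only in the 2 libraries of 1 group, cerebellar NeuN+ for Bsn and prefrontal NeuN- for Rims3, so the filter itself favoured a difference for these genes. Vamp1 reached 1 FPKM only in cerebellar libraries, and Rab3b and Cplx3 only in prefrontal ones. For these genes the filter likewise favoured a difference between regions. All of them are kept in the counts below. Since the 2 libraries of a group come from the same mouse, p-values speak of how these libraries vary, possibly for technical reasons, and say nothing of how mice vary. In bulk nuclei, fewer cells that use a gene and less RNA per cell cannot be told apart.

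Libraries of the same group correlated at Spearman 0.972 to 0.977 over all features and libraries of different groups at 0.680 to 0.808. The 8 astrocyte markers summed to 44.5 and 43.0 scaled FPKM in prefrontal NeuN+ nuclei, against 622 and 666 in prefrontal NeuN- nuclei, and to 42.2 and 39.7 in cerebellar NeuN+ nuclei, against 579.8 and 579 in cerebellar NeuN- nuclei. The 8 oligodendrocyte markers summed to 99.4 and 92.3 in prefrontal NeuN+ nuclei, against 2036 and 2049 in NeuN- nuclei, and to 219 and 213 in cerebellar NeuN+ nuclei, against 1588 and 1614 in NeuN- nuclei. The 8 microglial markers summed to 26.4 and 30.9 in prefrontal NeuN+ nuclei, against 536 and 535 in NeuN- nuclei, and to 13.4 and 15.3 in cerebellar NeuN+ nuclei, against 53.3 and 56.1 in NeuN- nuclei. Aif1 was listed at 0 in both cerebellar NeuN+ libraries. All 8 astrocyte and all 8 oligodendrocyte markers were called lower in NeuN+ nuclei of both regions, as were 7 of 7 tested microglial markers in prefrontal cortex and 6 of 7 in cerebellum. The NeuN antigen's own gene, Rbfox3, averaged 126 ± 3.48 scaled FPKM in cerebellar NeuN+ nuclei and 35.2 ± 0.704 in cerebellar NeuN- nuclei, but 16.7 ± 0.361 in prefrontal NeuN+ nuclei and 11.8 ± 1.03 in prefrontal NeuN- nuclei (SD, n = 2 each). The 7 granule cell markers summed to 711 and 711 in cerebellar NeuN+ nuclei and 212 and 209.9 in cerebellar NeuN- nuclei, and all 7 were called higher in NeuN+ nuclei. Neuron markers were read in prefrontal NeuN- libraries too. The 4 inhibitory neuron markers summed to 78.0 and 79.3 in prefrontal NeuN+ nuclei, against 66.3 and 70.3 in NeuN- nuclei. The 7 excitatory cortical neuron markers summed to 62.4 and 64.4 in prefrontal NeuN+ nuclei, against 42.4 and 36.3 in NeuN- nuclei. The 4 neuronal markers Rbfox3, Elavl2, Map2 and Tubb3 summed to 156 and 152 in prefrontal NeuN+ nuclei, against 137 and 136 in NeuN- nuclei. Snap25, also on that marker list, was left out of this sum because it is 1 of the 44 genes. With Snap25 the order turned, with sums of 1183 and 1173 in prefrontal NeuN+ nuclei, against 1524 and 1628 in NeuN- nuclei. In cerebellum the inhibitory neuron markers summed to 30.1 and 31.3 in NeuN+ nuclei, against 85.2 and 86.9 in NeuN- nuclei. Of these 4, 3 were called lower in cerebellar NeuN+ nuclei. Gad1, a GABA synthesis enzyme, averaged 18.5 ± 0.250 in NeuN+ nuclei and 54.1 ± 1.1 in NeuN- nuclei. The 6 Purkinje cell markers summed to 495 and 487 in cerebellar NeuN+ nuclei, against 434 and 463 in cerebellar NeuN- nuclei. The part that this mixture plays in the differences given below was not tested.

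Promoter sequence was available for 37 of the 44 genes, as RefSeq windows on GRCm38.p6 from 250 bases before a transcript start to 50 after it. Windows of Syn1 and Rph3a held the element RE1, the site of the neuronal gene repressor REST, with at most 3 mismatches at its 18 fixed positions, and they are shown because they were the only windows of these genes with that element among those searched. Windows of Syn1, Napa and Sh3gl2 held the cAMP response element TGACGTCA, and they too were the only windows of these genes with that element. Whether either element goes with the differences given below was not tested. Capitals mark RE1 (the first capital run of Syn1 and the only one of Rph3a) and the cAMP response element (the second capital run of Syn1 and the only one of Napa and Sh3gl2). Each line gives the strand of the gene, 5′ to 3′. The Syn1 stretch is chrX:20920919-20921168 (minus strand), the Rph3a stretch chr5:121009554-121009694 (minus strand), the Napa stretch chr7:16098513-16098580 (plus strand) and the Sh3gl2 stretch chr4:85205359-85205455 (plus strand), all on GRCm38.p6.
Syn1: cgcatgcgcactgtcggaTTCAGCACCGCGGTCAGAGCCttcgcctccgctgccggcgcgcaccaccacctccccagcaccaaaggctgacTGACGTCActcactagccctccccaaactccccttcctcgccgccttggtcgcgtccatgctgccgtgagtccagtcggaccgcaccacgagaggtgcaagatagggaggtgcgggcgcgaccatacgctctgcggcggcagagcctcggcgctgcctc
Rph3a: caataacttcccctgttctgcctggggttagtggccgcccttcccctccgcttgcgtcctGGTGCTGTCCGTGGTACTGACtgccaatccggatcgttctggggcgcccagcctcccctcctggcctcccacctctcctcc
Napa: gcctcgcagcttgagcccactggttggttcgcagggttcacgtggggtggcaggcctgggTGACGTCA
Sh3gl2: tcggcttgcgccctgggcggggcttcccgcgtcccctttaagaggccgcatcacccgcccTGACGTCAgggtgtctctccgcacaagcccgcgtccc

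The Syn1 element had 1 mismatch to RE1 and lay 232 to 212 bases before the start; the Rph3a element had 3 mismatches and lay 96 to 76 bases before it. Both strands were searched for every motif. The 37 genes had 46 windows. RE1 was present in 2 of the 46 (4.35%), against 0.0944% of all 32851 promoter windows of the genome table. The cAMP response element was present in 3 (6.52%), against 1.79% of all windows; it lay 159 to 152 bases before the start of Syn1, 37 to 30 before that of Sh3gl2, and across the start of Napa. The GC box GGGCGG was present in 29 (63.0%), against 35.7% of all windows, and the TATA box TATAAA in 3, of Rab3b and Sv2b (6.52%), against 13.6% of all windows. The windows of the 37 genes held a median of 19 CG dinucleotides, against 7 over all windows. A match is a run of letters and not a measured binding site.

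The 44 genes spanned a wide range of levels in all groups. Their group means had a median of 15.0 scaled FPKM in cerebellar NeuN+ nuclei, 7.39 in cerebellar NeuN- nuclei, 12.6 in prefrontal NeuN+ nuclei and 6.99 in prefrontal NeuN- nuclei. Snap25, the plasma membrane SNARE, was the highest of them in each group: it had 768 and 773 scaled FPKM in cerebellar NeuN+ nuclei, 395 and 395 in cerebellar NeuN- nuclei, 1026 and 1021 in prefrontal NeuN+ nuclei and 1387 and 1492 in prefrontal NeuN- nuclei. The 4 groups did not overlap for Snap25, and its highest values were in prefrontal NeuN- libraries. Of the 43 tested genes, 19 had their highest group mean in cerebellar NeuN+ nuclei, 15 in prefrontal NeuN+ nuclei, 8 in prefrontal NeuN- nuclei (Napa, Rab3b, Rims3, Sh3gl2, Snap25, Syn1, Syngr1 and Synpr) and 1, Syn3, in cerebellar NeuN- nuclei.

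**Figure D1:**
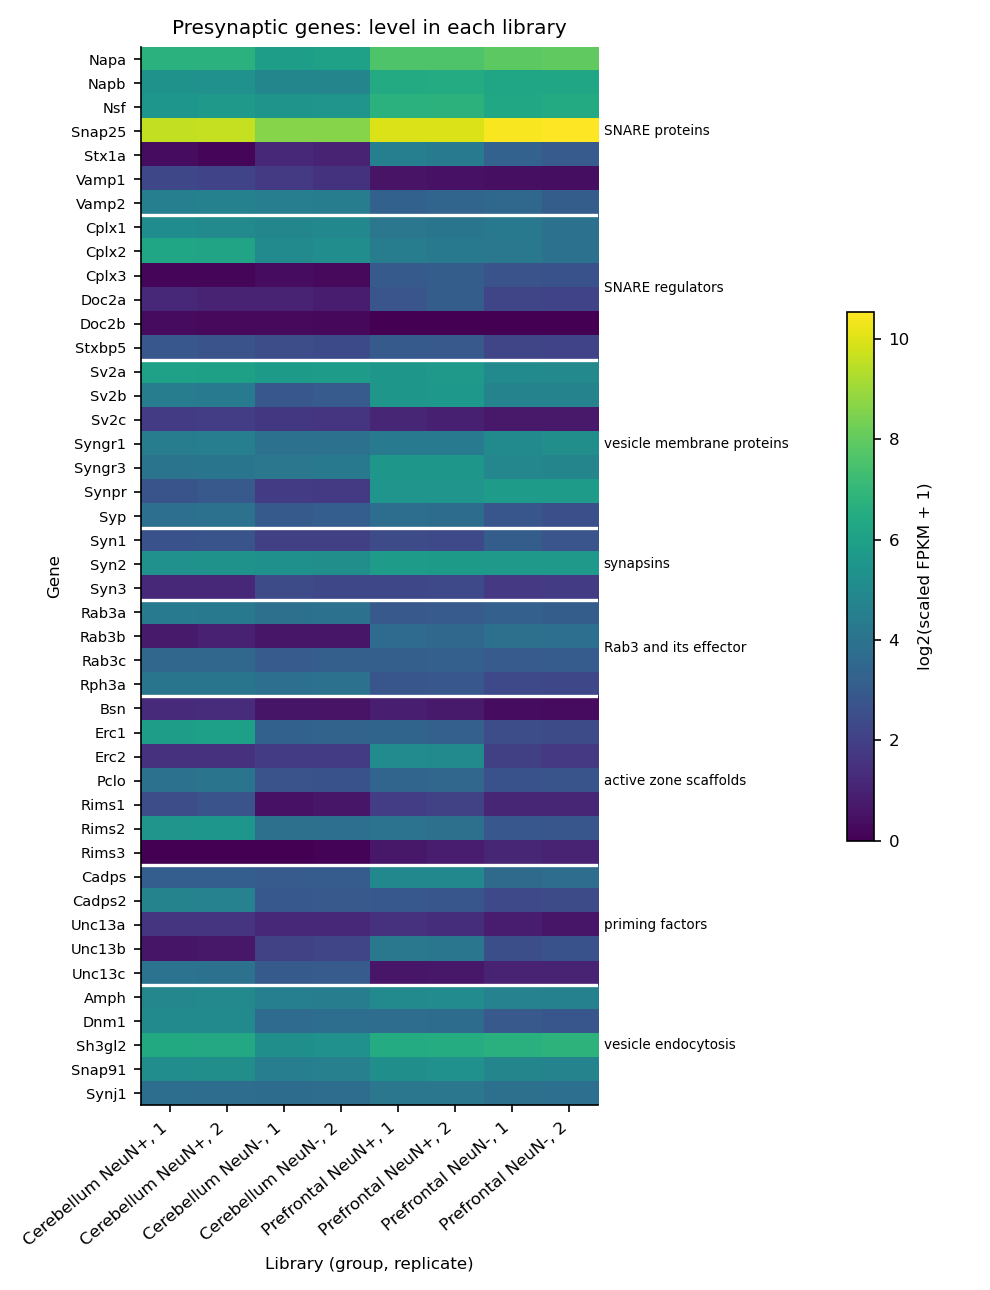
Level of each of the 44 genes (vertical axis, grouped by role) in each of the 8 libraries (horizontal axis), as log2(scaled FPKM + 1) in colour. Snap25 is the brightest line in each group, Stx1a, Unc13b and Erc2 are bright in prefrontal NeuN+ libraries and dark in cerebellar NeuN+ libraries, and Unc13c and Erc1 show the opposite.

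NeuN+ nuclei were first compared with NeuN- nuclei within each region. In prefrontal cortex, 28 of the 43 tested genes rose in NeuN+ nuclei (65.1%, where 35.0% of all features tested rose), 8 fell (18.6%, where 37.6% of all features fell) and 7 were not called. Their median log2 difference was 0.39, against -0.01 over all features. In cerebellum, 28 rose (65.1%, where 32.4% of all features rose), 5 fell (11.6%, where 39.2% fell) and 10 were not called, with a median of 0.40 against -0.04 over all features. The same 17 genes rose in both regions: Amph, Bsn, Cadps2, Cplx2, Dnm1, Erc1, Napb, Pclo, Rims1, Rims2, Rph3a, Snap91, Stxbp5, Sv2a, Sv2b, Syp and Unc13a (39.5%, where 15.2% of all features rose in both). None fell in both, where 20.3% of all features did. The number that rose in both was 14 with no scaling (32.6%, where 11.9% of all features did so). With quantile normalization it was 20 (46.5%, where 20.5% of all features did so). In all, 7 fell in prefrontal NeuN+ nuclei and rose in cerebellar NeuN+ nuclei (Napa, Sh3gl2, Snap25, Syn1, Syngr1, Synpr and Unc13c; 16.3%, where 8.48% of all features did so). Another 5 did the reverse (Erc2, Stx1a, Syn3, Syngr3 and Unc13b; 11.6%, where 9.60% of all features did so). The first of these counts was 4 with a common FPKM sum and 3 with quantile normalization, since the prefrontal calls of Napa, Sh3gl2, Synpr and, with quantile normalization, Snap25 were lost or turned. With no scaling that first count was 9 (20.9%, where 11.6% of all features did so), and with a pseudocount of 0.1 or 0.5 it was 8. The second was 3 with quantile normalization, 3 without cerebellar NeuN+ replicate 1 and 3 without cerebellar NeuN- replicate 2. The neuron markers that prefrontal NeuN- libraries also held are given above, and their part in the prefrontal decreases was not tested. The difference between the regional changes was itself tested: it was called for 33 genes (76.7%, near the 70.1% of all features called), 20 with a larger NeuN+ minus NeuN- change in cerebellum (background 33.1%) and 13 with a smaller one (background 37.0%). Depending on how libraries were scaled, the number that fell in prefrontal NeuN+ nuclei ranged from 4 with quantile normalization and 5 with a common FPKM sum to 11 with no scaling, and the number with a smaller change in cerebellum was 7 with no scaling. The number that fell in cerebellar NeuN+ nuclei was 3 with quantile normalization, and also 3 without cerebellar NeuN+ replicate 1 or without cerebellar NeuN- replicate 2. With no scaling, the prefrontal increases of Amph, Cplx2, Cplx3, Napb, Sv2c and Synj1 also lost their calls.

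**Figure D2:**
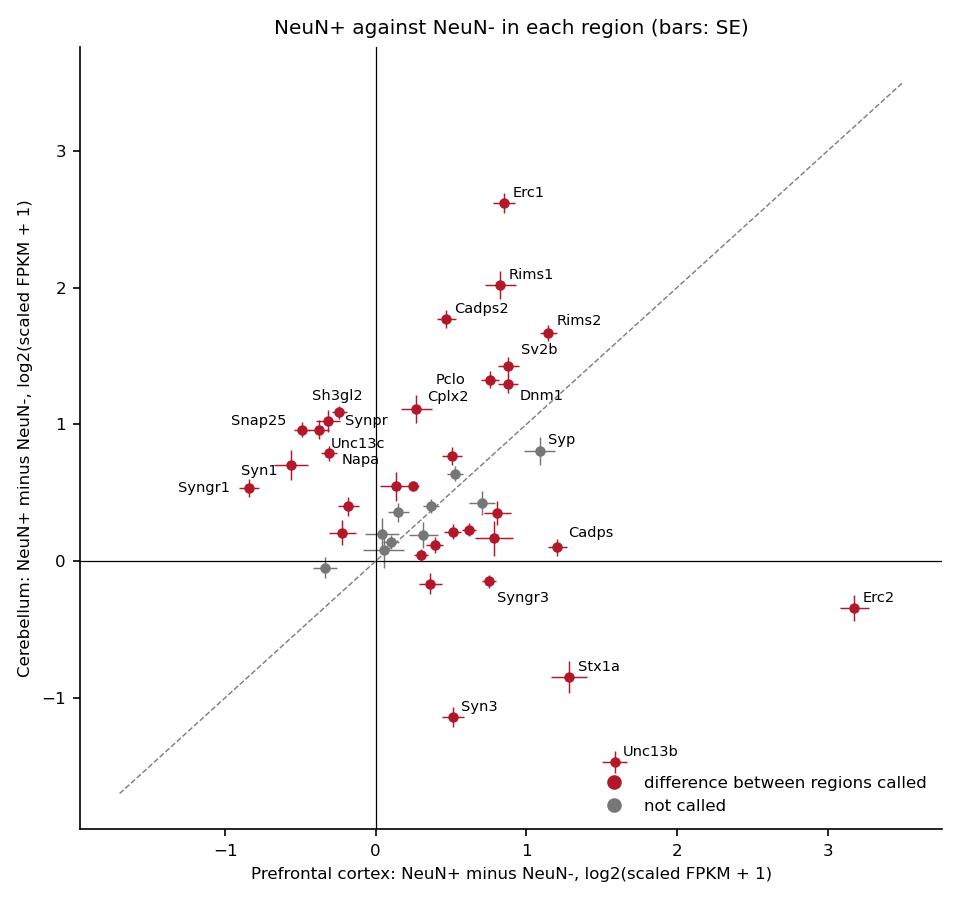
NeuN+ minus NeuN- difference of 43 genes in prefrontal cortex (horizontal axis) and cerebellum (vertical axis), both on the log2(scaled FPKM + 1) scale; points are estimates, bars are SE, the dashed line marks equal differences, and red marks genes whose regional difference was called. Erc2, Unc13b and Stx1a lie at lower right with positive prefrontal and negative cerebellar values, and Erc1 and Rims1 lie above the line.

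Of the 8 roles, the active zone scaffold had the highest median difference between gates in both regions. The 7 scaffold genes summed to 72.1 and 68.1 scaled FPKM in prefrontal NeuN+ nuclei, against 21.8 and 20.7 in NeuN- nuclei, and to 126 and 131 in cerebellar NeuN+ nuclei, against 31.3 and 31.7 in NeuN- nuclei. In prefrontal cortex 6 of the 7 rose and 1, Rims3, fell; in cerebellum 5 rose, Erc2 fell and Rims3 was not called. Their median log2 difference was 0.83 in prefrontal cortex and 1.33 in cerebellum. Beside these counts and those of the other roles below, 35.0% of all features rose and 37.6% fell in prefrontal NeuN+ nuclei. In cerebellar NeuN+ nuclei 32.4% of all features rose and 39.2% fell.

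Erc2, which encodes the brain-specific ELKS protein CAST (chr14:28435628-29291723 on mm9), had 33.3 and 31.1 scaled FPKM in prefrontal NeuN+ nuclei, against 3.01 and 2.36 in prefrontal NeuN- nuclei. The prefrontal groups were far apart (9.04-fold higher in NeuN+; log2 difference 3.18, SE 0.10, adjusted p = 7.59e-07). In cerebellum Erc2 was low in all libraries, with 1.88 and 1.82 scaled FPKM in cerebellar NeuN+ nuclei, against 2.53 and 2.70 in cerebellar NeuN- nuclei (log2 difference -0.34, SE 0.10, adjusted p = 0.0164). That small cerebellar decrease lost its call with quantile normalization and without either cerebellar NeuN+ library or cerebellar NeuN- replicate 2. Its paralog Erc1, which encodes ELKS1 (chr6:119520814-119798168 on mm9), had 59.2 and 60.9 scaled FPKM in cerebellar NeuN+ nuclei, against 8.57 and 9.30 in cerebellar NeuN- nuclei. Both cerebellar NeuN+ libraries stood above every other library (6.15-fold higher than in NeuN-; log2 difference 2.62, SE 0.07, adjusted p = 6.54e-07). In prefrontal cortex Erc1 had 9.43 and 8.34 scaled FPKM in prefrontal NeuN+ nuclei, against 4.59 and 4.33 in prefrontal NeuN- nuclei (log2 difference 0.85, SE 0.07, adjusted p = 6.35e-05). The regional difference of the NeuN+ change was -3.52 for Erc2 (adjusted p = 5.81e-06) and 1.77 for Erc1 (adjusted p = 2.1e-05), the most negative and the most positive of the 43 genes.

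The Rim genes encode the scaffold proteins that bind Rab3 and calcium channels. Rims2 had 44.4 and 45.6 scaled FPKM in cerebellar NeuN+ nuclei, against 13.7 and 13.3 in cerebellar NeuN- nuclei (log2 difference 1.67, SE 0.06, adjusted p = 1.3e-06). It had 15.4 and 14.0 scaled FPKM in prefrontal NeuN+ nuclei, against 6.17 and 5.99 in prefrontal NeuN- nuclei (log2 difference 1.15, SE 0.06, adjusted p = 5.59e-06). NeuN+ and NeuN- libraries were separated in both regions. Rims1 had 4.57 and 5.52 scaled FPKM in cerebellar NeuN+ nuclei, against 0.422 and 0.557 in cerebellar NeuN- nuclei (log2 difference 2.02, SE 0.10, adjusted p = 5.61e-06). It was closer between gates in prefrontal cortex, with 2.73 and 3.06 scaled FPKM in prefrontal NeuN+ nuclei, against 1.22 and 1.16 in prefrontal NeuN- nuclei (log2 difference 0.83, SE 0.10, adjusted p = 0.000364). Rims3, which lacks the Rab3-binding part of its relatives, was listed at 0 in 3 of the 4 cerebellar libraries and had 0.597 and 0.775 scaled FPKM in prefrontal NeuN+ nuclei, against 1.21 and 1.05 in prefrontal NeuN- nuclei (log2 difference -0.34, SE 0.08, adjusted p = 0.00712), a call lost with a pseudocount of 0.1. Pclo and Bsn encode the giant scaffold proteins Piccolo and Bassoon. Pclo rose in NeuN+ nuclei by 0.76 in prefrontal cortex and 1.33 in cerebellum on the log2 scale. Bsn had 1.48 and 1.56 scaled FPKM in cerebellar NeuN+ nuclei, against 0.510 and 0.451 in cerebellar NeuN- nuclei (log2 difference 0.77, SE 0.07, adjusted p = 6.2e-05); a long noncoding RNA, 4930447F24Rik, shares 4850 bases with its span and was itself higher in NeuN+ nuclei, with deposited FPKM means of 14.5 in cerebellar NeuN+ and 1.75 in cerebellar NeuN- nuclei.

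The 5 priming factor genes together had 55.5 and 53.9 scaled FPKM in prefrontal NeuN+ nuclei, against 22.1 and 24.0 in NeuN- nuclei, and 51.2 and 49.7 in cerebellar NeuN+ nuclei, against 25.1 and 26.3 in NeuN- nuclei. In prefrontal cortex 4 of the 5 rose and Unc13c fell; in cerebellum 3 rose, Unc13b fell and Cadps was not called. Unc13b, which encodes Munc13-2, had 17.6 and 16.6 scaled FPKM in prefrontal NeuN+ nuclei, against 4.83 and 5.23 in prefrontal NeuN- nuclei (3.00-fold higher; log2 difference 1.59, SE 0.08, adjusted p = 5.97e-06). In cerebellum the order was the opposite, with 0.529 and 0.592 scaled FPKM in cerebellar NeuN+ nuclei, against 3.10 and 3.55 in cerebellar NeuN- nuclei (2.77-fold lower; log2 difference -1.47, SE 0.08, adjusted p = 7.89e-06). Unc13c, which encodes Munc13-3, had 15.2 and 14.5 scaled FPKM in cerebellar NeuN+ nuclei, against 7.04 and 7.24 in cerebellar NeuN- nuclei (log2 difference 0.96, SE 0.07, adjusted p = 2.28e-05). It had 0.539 and 0.620 scaled FPKM in prefrontal NeuN+ nuclei, against 1.06 and 1.05 in prefrontal NeuN- nuclei (log2 difference -0.38, SE 0.07, adjusted p = 0.00212). Unc13a, which encodes the widely used Munc13-1, was low throughout and rose in NeuN+ nuclei of both regions, by 0.70 in prefrontal cortex and 0.42 in cerebellum on the log2 scale. Its regional difference was not called (-0.28, 95% interval -0.58 to 0.02, adjusted p = 0.0808).

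The CAPS genes encode priming factors of vesicles and dense-core granules. Cadps had 29.1 and 29.0 scaled FPKM in prefrontal NeuN+ nuclei, against 11.4 and 12.7 in prefrontal NeuN- nuclei (2.31-fold higher; log2 difference 1.21, SE 0.06, adjusted p = 6.82e-06). It had 7.86 and 7.96 scaled FPKM in cerebellar NeuN+ nuclei, against 7.16 and 7.47 in cerebellar NeuN- nuclei (log2 difference 0.10, SE 0.06, adjusted p = 0.197). The prefrontal libraries were separated by gate, while the cerebellar difference was not called. Cadps2 had 25.5 and 24.7 scaled FPKM in cerebellar NeuN+ nuclei, against 6.57 and 6.75 in cerebellar NeuN- nuclei (3.41-fold higher; log2 difference 1.77, SE 0.06, adjusted p = 1.47e-06). It had 6.43 and 6.00 scaled FPKM in prefrontal NeuN+ nuclei, against 4.03 and 4.40 in prefrontal NeuN- nuclei (log2 difference 0.47, SE 0.06, adjusted p = 0.000596). The regional difference was -1.1 for Cadps (adjusted p = 7.07e-05) and 1.30 for Cadps2 (adjusted p = 3.78e-05).

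The SNARE proteins and the factors that recycle them differed in another way. Summed over 7 genes they had 1448 and 1444 scaled FPKM in prefrontal NeuN+ nuclei, against 1796 and 1917 in NeuN- nuclei, a sum in which Snap25 was the largest term. In cerebellum the sum was 986 and 995 in NeuN+ nuclei, against 549 and 554 in NeuN- nuclei. In prefrontal cortex 3 of the 7 rose (Stx1a, Nsf and Napb), 2 fell (Snap25 and Napa) and 2 were not called (Vamp1 and Vamp2); in cerebellum Snap25, Napa, Napb and Vamp1 rose, Stx1a fell, and Nsf and Vamp2 were not called. Snap25 was 1.40-fold lower in prefrontal NeuN+ nuclei (log2 difference -0.49, SE 0.06, adjusted p = 0.000238) and 1.95-fold higher in cerebellar NeuN+ nuclei (log2 difference 0.96, SE 0.06, adjusted p = 9.46e-06). The prefrontal call was lost with quantile normalization. Stx1a, a syntaxin of the presynaptic membrane (chr5:135499442-135526969 on mm9), had 22.2 and 19.5 scaled FPKM in prefrontal NeuN+ nuclei, against 8.82 and 7.14 in prefrontal NeuN- nuclei (2.44-fold higher; log2 difference 1.29, SE 0.12, adjusted p = 9.37e-05). In cerebellum it was near the bottom of the range, with 0.265 and 0.146 scaled FPKM in cerebellar NeuN+ nuclei, against 1.26 and 1.08 in cerebellar NeuN- nuclei (log2 difference -0.85, SE 0.12, adjusted p = 0.000682).

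Napa and Napb encode the alpha and beta SNAP adaptors that bring the ATPase Nsf to spent SNARE complexes. Napa had 106 and 106 scaled FPKM in cerebellar NeuN+ nuclei, against 58.2 and 63.6 in cerebellar NeuN- nuclei (log2 difference 0.79, SE 0.06, adjusted p = 2.28e-05). In prefrontal cortex it had 198 and 197 scaled FPKM in prefrontal NeuN+ nuclei, against 239 and 252 in prefrontal NeuN- nuclei (log2 difference -0.31, SE 0.06, adjusted p = 0.00216), a call lost with a common FPKM sum and turned to 0.026 with quantile normalization. Napb rose by 0.25 in prefrontal cortex and 0.55 in cerebellum on the log2 scale. Nsf rose by 0.39 in prefrontal cortex (adjusted p = 0.000839) and differed by 0.12 in cerebellum (95% interval -0.02 to 0.25, adjusted p = 0.109). Vamp2, the main vesicle SNARE of forebrain, was not called in either region: its log2 difference was 0.05 in prefrontal cortex (95% interval -0.27 to 0.38) and 0.08 in cerebellum (95% interval -0.24 to 0.41). Vamp1 rose in cerebellar NeuN+ nuclei, with 3.90 and 3.35 scaled FPKM in cerebellar NeuN+ nuclei, against 2.46 and 1.89 in cerebellar NeuN- nuclei (log2 difference 0.55, SE 0.11, adjusted p = 0.003).

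Among the SNARE regulators, 4 of the 5 tested genes rose in prefrontal NeuN+ nuclei (80%, where 35.0% of all features rose). In cerebellar NeuN+ nuclei 2 rose (40%, near the 32.4% of all features), and none fell in either region. Cplx2, the complexin of many excitatory neurons, had 74.1 and 71.3 scaled FPKM in cerebellar NeuN+ nuclei, against 31.6 and 34.8 in cerebellar NeuN- nuclei (2.16-fold higher; log2 difference 1.11, SE 0.10, adjusted p = 8.6e-05). Its prefrontal increase was at the edge of the threshold (0.27, adjusted p = 0.0495) and was lost under 12 of the 19 alternatives tried, among them each of 6 left-out libraries (prefrontal NeuN+ replicate 1, prefrontal NeuN- replicate 2 and all 4 cerebellar libraries). Cplx1 was not called in either region, with 95% intervals of -0.23 to 0.31 in prefrontal cortex and -0.07 to 0.47 in cerebellum. Cplx3, a complexin best known from retina, had 6.87 and 7.65 scaled FPKM in prefrontal NeuN+ nuclei, against 5.52 and 5.32 in prefrontal NeuN- nuclei (log2 difference 0.36, SE 0.08, adjusted p = 0.0046) and at most 0.269 scaled FPKM in any cerebellar library. Doc2a, a calcium sensor, had 5.88 and 7.59 scaled FPKM in prefrontal NeuN+ nuclei, against 3.62 and 3.32 in prefrontal NeuN- nuclei (log2 difference 0.78, SE 0.13, adjusted p = 0.00131); its span shares 273 bases with Ino80e. Stxbp5, which encodes the SNARE-binding inhibitor tomosyn, rose by 0.81 in prefrontal cortex and 0.35 in cerebellum on the log2 scale, the second of which was not called without cerebellar NeuN+ replicate 1 or cerebellar NeuN- replicate 2.

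The vesicle membrane proteins split between gates in prefrontal cortex. There 5 of 7 rose in NeuN+ nuclei (Sv2a, Sv2b, Sv2c, Syngr3 and Syp) and 2 fell (Syngr1 and Synpr); in cerebellum Sv2a, Sv2b, Syngr1, Synpr and Syp rose, Syngr3 fell and Sv2c was not called. Syp, which encodes synaptophysin, an abundant protein of the vesicle membrane, had 13.2 and 12.3 scaled FPKM in prefrontal NeuN+ nuclei, against 6.05 and 4.91 in prefrontal NeuN- nuclei (2.13-fold higher; log2 difference 1.09, SE 0.10, adjusted p = 0.000105). It also rose in cerebellum (log2 difference 0.81, SE 0.10, adjusted p = 0.000423), and the regional difference was not called (-0.28, 95% interval -0.63 to 0.07, adjusted p = 0.128). Synpr, which encodes the synaptophysin relative synaptoporin, had 44.3 and 43.6 scaled FPKM in prefrontal NeuN+ nuclei, against 53.7 and 56.4 in prefrontal NeuN- nuclei (log2 difference -0.32, SE 0.08, adjusted p = 0.00923), a call lost with a common FPKM sum, with quantile normalization, and without prefrontal NeuN+ replicate 2 or prefrontal NeuN- replicate 2. In cerebellum it had 5.62 and 6.71 scaled FPKM in cerebellar NeuN+ nuclei, against 2.54 and 2.48 in cerebellar NeuN- nuclei (log2 difference 1.02, SE 0.08, adjusted p = 3.3e-05).

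Syngr1 and Syngr3 encode synaptogyrins, tetraspan proteins of the vesicle. Syngr1 had 18.6 and 18.7 scaled FPKM in prefrontal NeuN+ nuclei, against 32.2 and 36.3 in prefrontal NeuN- nuclei (1.79-fold lower; log2 difference -0.84, SE 0.07, adjusted p = 4.41e-05). It had 20.7 and 22.1 scaled FPKM in cerebellar NeuN+ nuclei, against 14.4 and 14.5 in cerebellar NeuN- nuclei (log2 difference 0.54, SE 0.07, adjusted p = 0.000364). Syngr3 had 47.4 and 46.5 scaled FPKM in prefrontal NeuN+ nuclei, against 28.1 and 26.8 in prefrontal NeuN- nuclei (log2 difference 0.75, SE 0.05, adjusted p = 1.62e-05). It had 15.5 and 16.2 scaled FPKM in cerebellar NeuN+ nuclei, against 17.4 and 18.0 in cerebellar NeuN- nuclei (log2 difference -0.15, SE 0.05, adjusted p = 0.0306). The small cerebellar decrease of Syngr3 was lost with quantile normalization, without the variance trend, and without cerebellar NeuN+ replicate 1 or either cerebellar NeuN- library. Regional differences were 1.37 for Syngr1 (adjusted p = 3.63e-05) and -0.90 for Syngr3 (adjusted p = 5.42e-05), so both passed the test with opposite signs. Sv2c rose in prefrontal NeuN+ nuclei (0.32, adjusted p = 0.0228), a call lost without prefrontal NeuN+ replicate 1 or either prefrontal NeuN- library. That call was also lost with no scaling and with only the groups compared. Sv2b, a transporter-like vesicle glycoprotein, had 47.4 and 47.6 scaled FPKM in prefrontal NeuN+ nuclei, against 25.3 and 25.4 in prefrontal NeuN- nuclei (log2 difference 0.88, SE 0.07, adjusted p = 4.63e-05). It had 20.6 and 18.6 scaled FPKM in cerebellar NeuN+ nuclei, against 6.27 and 7.08 in cerebellar NeuN- nuclei (log2 difference 1.42, SE 0.07, adjusted p = 5.15e-06). Sv2a, its more widespread relative and the binding site of levetiracetam, rose by 0.62 in prefrontal cortex and 0.23 in cerebellum on the log2 scale.

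Synapsins tether vesicles to each other and to actin. Syn1 had 4.36 and 3.99 scaled FPKM in prefrontal NeuN+ nuclei, against 7.53 and 5.82 in prefrontal NeuN- nuclei (log2 difference -0.56, SE 0.11, adjusted p = 0.00372). It had 5.36 and 5.66 scaled FPKM in cerebellar NeuN+ nuclei, against 2.96 and 3.03 in cerebellar NeuN- nuclei (log2 difference 0.70, SE 0.11, adjusted p = 0.00123). Syn3 showed the reverse order, with 3.92 and 3.99 scaled FPKM in prefrontal NeuN+ nuclei, against 2.40 and 2.55 in prefrontal NeuN- nuclei (log2 difference 0.51, SE 0.07, adjusted p = 0.000715). It had 1.32 and 1.28 scaled FPKM in cerebellar NeuN+ nuclei, against 4.27 and 3.86 in cerebellar NeuN- nuclei (2.20-fold lower; log2 difference -1.14, SE 0.07, adjusted p = 1.46e-05). The spans of these genes hold Timp genes: Timp3, which shares 49094 bases with Syn3, had deposited FPKM means of 4.25 in cerebellar NeuN+ nuclei and 21.6 in cerebellar NeuN- nuclei, the same order as Syn3, and of 2.60 in prefrontal NeuN+ nuclei and 15.0 in prefrontal NeuN- nuclei, the opposite order to Syn3. Timp4, which lies within Syn2, had 22.2 in cerebellar NeuN+ nuclei and 81.0 in cerebellar NeuN- nuclei, and 6.52 in prefrontal NeuN+ nuclei and 44.5 in prefrontal NeuN- nuclei. Timp1, which lies within Syn1, had at most 0.0838 in any group, while Araf, with deposited means of 63.3 to 147, shares 11 bases with Syn1. Whether counting used strand was not stated in any source read here, so reads of such neighbours cannot be told apart from those of the synapsins; the part this plays was not tested. Syn2, the most abundant synapsin in each group, was not called in prefrontal cortex (95% interval -0.02 to 0.22), and in cerebellum its difference was 0.14 (adjusted p = 0.0488), which was lost under 11 of the 19 alternatives, among them each of 5 left-out libraries (both prefrontal NeuN+, cerebellar NeuN+ replicate 2 and both cerebellar NeuN-).

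Rab3 proteins are the small GTPases of synaptic vesicles, and rabphilin, encoded by Rph3a, is one of their effectors. In prefrontal cortex only Rph3a of these 4 was called, with 5.99 and 6.17 scaled FPKM in prefrontal NeuN+ nuclei, against 4.04 and 3.90 in prefrontal NeuN- nuclei (log2 difference 0.51, SE 0.05, adjusted p = 0.000184); in cerebellum Rab3a, Rab3c and Rph3a rose, the last of them not called without cerebellar NeuN- replicate 1. Rab3a had 19.6 and 18.2 scaled FPKM in cerebellar NeuN+ nuclei, against 13.8 and 14.4 in cerebellar NeuN- nuclei (log2 difference 0.40, SE 0.07, adjusted p = 0.00188), and in prefrontal cortex its difference was -0.18 (95% interval -0.35 to -0.02, adjusted p = 0.0502). Rab3b was not called between gates in either region. The genes of vesicle retrieval rose in most cases: 4 of 5 in prefrontal cortex, where Sh3gl2 fell, and 4 of 5 in cerebellum, where Synj1 was not called. Dnm1, which encodes the neuronal dynamin that cuts vesicles from the membrane, had 31.7 and 32.1 scaled FPKM in cerebellar NeuN+ nuclei, against 11.9 and 12.9 in cerebellar NeuN- nuclei (2.46-fold higher; log2 difference 1.30, SE 0.07, adjusted p = 5.98e-06). It had 12.7 and 12.1 scaled FPKM in prefrontal NeuN+ nuclei, against 6.65 and 6.01 in prefrontal NeuN- nuclei (log2 difference 0.88, SE 0.07, adjusted p = 3.63e-05). Sh3gl2, which encodes endophilin A1, had 84.5 and 81.4 scaled FPKM in cerebellar NeuN+ nuclei, against 37.6 and 39.4 in cerebellar NeuN- nuclei (log2 difference 1.09, SE 0.05, adjusted p = 3.62e-06). It had 89.8 and 90.8 scaled FPKM in prefrontal NeuN+ nuclei, against 104 and 110.3 in prefrontal NeuN- nuclei (log2 difference -0.24, SE 0.05, adjusted p = 0.00414). The prefrontal decrease of Sh3gl2 was lost with a common FPKM sum and was 0.0068 with quantile normalization. Snap91, which encodes the clathrin adaptor AP180, rose by 0.53 in prefrontal cortex and 0.64 in cerebellum, and Amph, which encodes amphiphysin, by 0.37 and 0.40 on the log2 scale in the same order of regions; neither regional difference was called.

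Cerebellar NeuN+ nuclei were then compared with prefrontal NeuN+ nuclei. Of the 43 tested genes, 19 were higher in cerebellum (44.2%, where 36.5% of all features were higher), 18 were lower (41.9%, where 40.7% of all features were lower) and 6 were not called. The directions nearly balanced, with a median log2 difference of -0.10 against -0.03 over all features. The sizes were larger than those of features at large: the median absolute log2 difference was 1.11, against 0.63 over all features, with 10 genes called at least 2-fold higher (23.3%, where 12.1% of all features were) and 13 at least 2-fold lower (30.2%, where 18.9% of all features were). Features were not matched for level, and the scale understates changes of low genes. A mean of at least 5 scaled FPKM was reached by 33 of the 43 genes and by 8068 of the 14376 features. The part that level plays in these sizes was not tested. In NeuN- nuclei 18 genes were higher in cerebellum (41.9%, where 40.5% of all features were higher), 22 were lower (51.2%, where 39.0% of all features were lower) and 3 were not called. Both comparisons use libraries of the gate comparisons given above and are set beside them only as values. In both gates, 14 genes were higher in cerebellum (32.6%, where 23.6% of all features were) and 16 were lower (37.2%, where 25.2% of all features were). Rims1, Syn1 and Syngr1 were higher in cerebellar NeuN+ nuclei and lower in cerebellar NeuN- nuclei (6.98%, near the 5.85% of all features), and Syn3 was the reverse, as were 8.36% of all features. The increases of Syn1 (0.33) and Syngr1 (0.19) in cerebellar NeuN+ nuclei were lost without any 1 of 6 and 5 libraries: both prefrontal NeuN+ and both cerebellar NeuN- libraries and cerebellar NeuN+ replicate 2 for each gene, and cerebellar NeuN+ replicate 1 for Syn1. The direction of the NeuN+ calls held under each of the scalings tried.

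**Figure D3:**
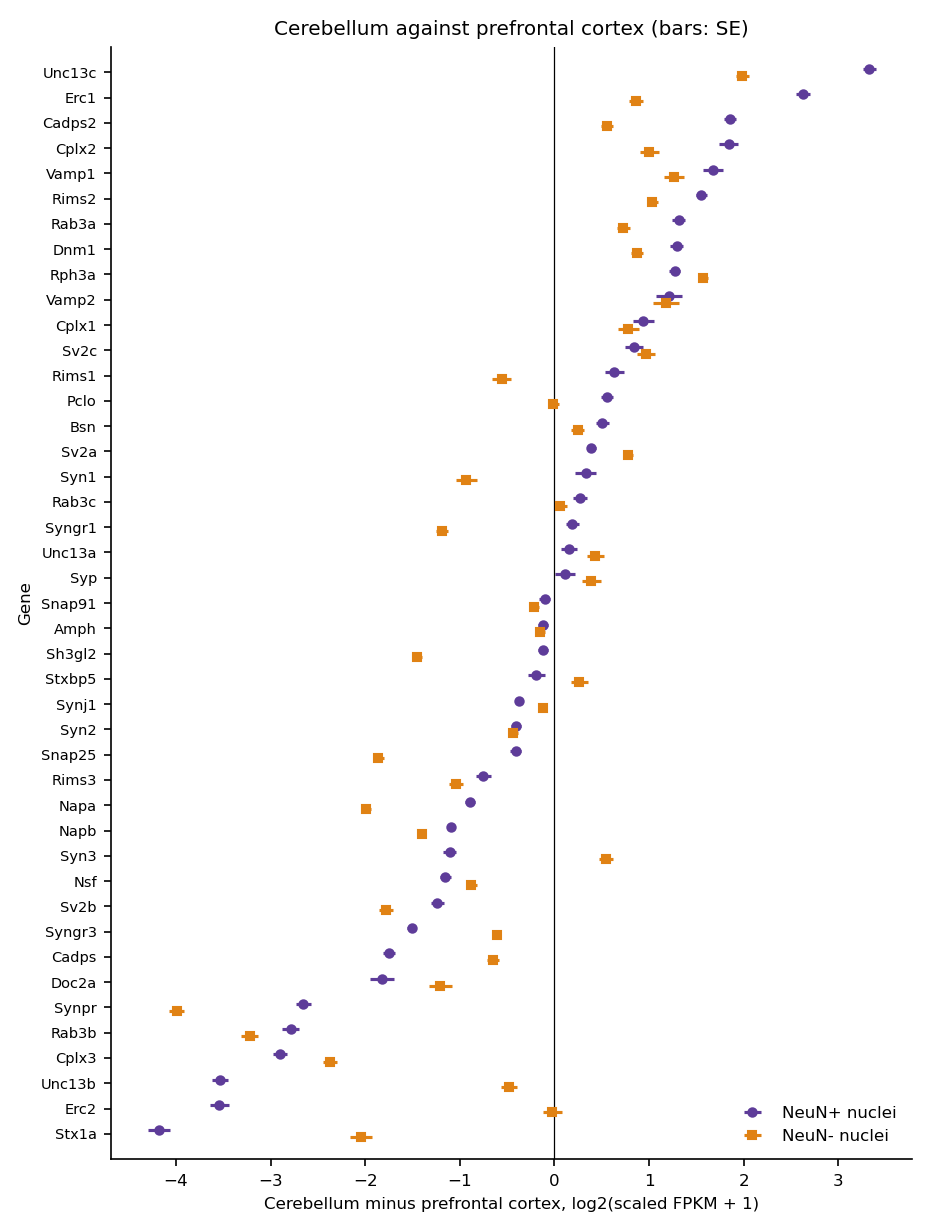
Cerebellum minus prefrontal cortex difference on the log2(scaled FPKM + 1) scale (horizontal axis) for 43 genes (vertical axis) in NeuN+ nuclei (circles) and NeuN- nuclei (squares), with SE as bars. Unc13c and Erc1 are the highest of the NeuN+ values and Stx1a, Erc2 and Unc13b the lowest; Synpr is the lowest of the NeuN- values.

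In the Erc, Unc13, Cadps, Rab3, Cplx, Sv2, Rims, Syn and Syngr families, at least 1 member was called higher and at least 1 lower in cerebellar NeuN+ nuclei than in prefrontal NeuN+ nuclei. Vamp1 and Vamp2 were both higher, and Napa and Napb both lower. The higher member was Syn1 in the Syn family and Syngr1 in the Syngr family. These calls were lost under 6 of 18 and 6 of 19 alternatives. In the Rims family the lower member was Rims3, which had at most 1.21 scaled FPKM in any library. Of all features, 36.5% were called higher and 40.7% lower in this comparison. How often other gene families held opposite calls was not counted. The share of a gene in its family's summed FPKM is a ratio within 1 library and does not depend on how libraries are scaled. Erc1 made up 97.0% ± 0.120 of Erc1 plus Erc2 in cerebellar NeuN+ nuclei and 21.6% ± 0.665 in prefrontal NeuN+ nuclei (SD, n = 2 each, as for all shares here). In NeuN- nuclei the Erc1 share was 77.3% ± 0.226 in cerebellum and 62.6% ± 3.03 in prefrontal cortex. Between the NeuN+ groups, Erc1 was 6.19-fold higher in cerebellum (log2 difference 2.63, SE 0.07, adjusted p = 3.61e-07) and Erc2 was 11.6-fold lower (log2 difference -3.54, SE 0.10, adjusted p = 3.43e-07). In NeuN- nuclei the regional difference of Erc2 was not called (-0.02, 95% interval -0.25 to 0.21).

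The Munc13 family divided likewise. Unc13c made up 85.2% ± 0.384 of the 3 Unc13 genes in cerebellar NeuN+ nuclei and 2.99% ± 0.413 in prefrontal NeuN+ nuclei, while Unc13b made up 3.22% ± 0.355 in cerebellar NeuN+ nuclei and 88.1% ± 0.185 in prefrontal NeuN+ nuclei. The share of Unc13a was 11.6% ± 0.0282 in cerebellar NeuN+ nuclei and 8.86% ± 0.597 in prefrontal NeuN+ nuclei. Unc13c, at chr9:73327231-73781374 on mm9, was 10.0-fold higher in cerebellar NeuN+ nuclei (log2 difference 3.33, SE 0.07, adjusted p = 1.31e-07) and 3.96-fold higher in cerebellar NeuN- nuclei (log2 difference 1.99, SE 0.07, adjusted p = 1.01e-06). Unc13b, at chr4:43071856-43277759 on mm9, was 11.6-fold lower in cerebellar NeuN+ nuclei (log2 difference -3.54, SE 0.08, adjusted p = 1.96e-07) and 1.40-fold lower in cerebellar NeuN- nuclei (log2 difference -0.48, SE 0.08, adjusted p = 0.00135). Unc13a was not called in NeuN+ nuclei (0.15, 95% interval -0.06 to 0.36).

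Cadps2 made up 76.0% ± 0.566 of the CAPS pair in cerebellar NeuN+ nuclei and 17.6% ± 0.684 in prefrontal NeuN+ nuclei. It was 3.62-fold higher in cerebellar NeuN+ nuclei (log2 difference 1.86, SE 0.06, adjusted p = 8.05e-07), and Cadps was 3.37-fold lower (log2 difference -1.75, SE 0.06, adjusted p = 9.9e-07). In the Rab3 family, Rab3a made up 63.4% ± 1.77 in cerebellar NeuN+ nuclei and 26.3% ± 1.42 in prefrontal NeuN+ nuclei. The share of Rab3b was 2.71% ± 0.673 in cerebellar NeuN+ nuclei and 42.9% ± 2.25 in prefrontal NeuN+ nuclei. Rab3b had 0.677 and 0.933 scaled FPKM in cerebellar NeuN+ nuclei, against 11.9 and 10.9 in prefrontal NeuN+ nuclei (6.90-fold lower; log2 difference -2.79, SE 0.09, adjusted p = 6.34e-07), and its shares in NeuN- nuclei were close to these, 2.50% ± 0.190 in cerebellum and 46.7% ± 0.150 in prefrontal cortex. Rab3a was 2.48-fold higher in cerebellar NeuN+ nuclei (log2 difference 1.31, SE 0.07, adjusted p = 4.96e-06), and its effector Rph3a was 2.41-fold higher (log2 difference 1.27, SE 0.05, adjusted p = 2.06e-06).

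**Figure D4:**
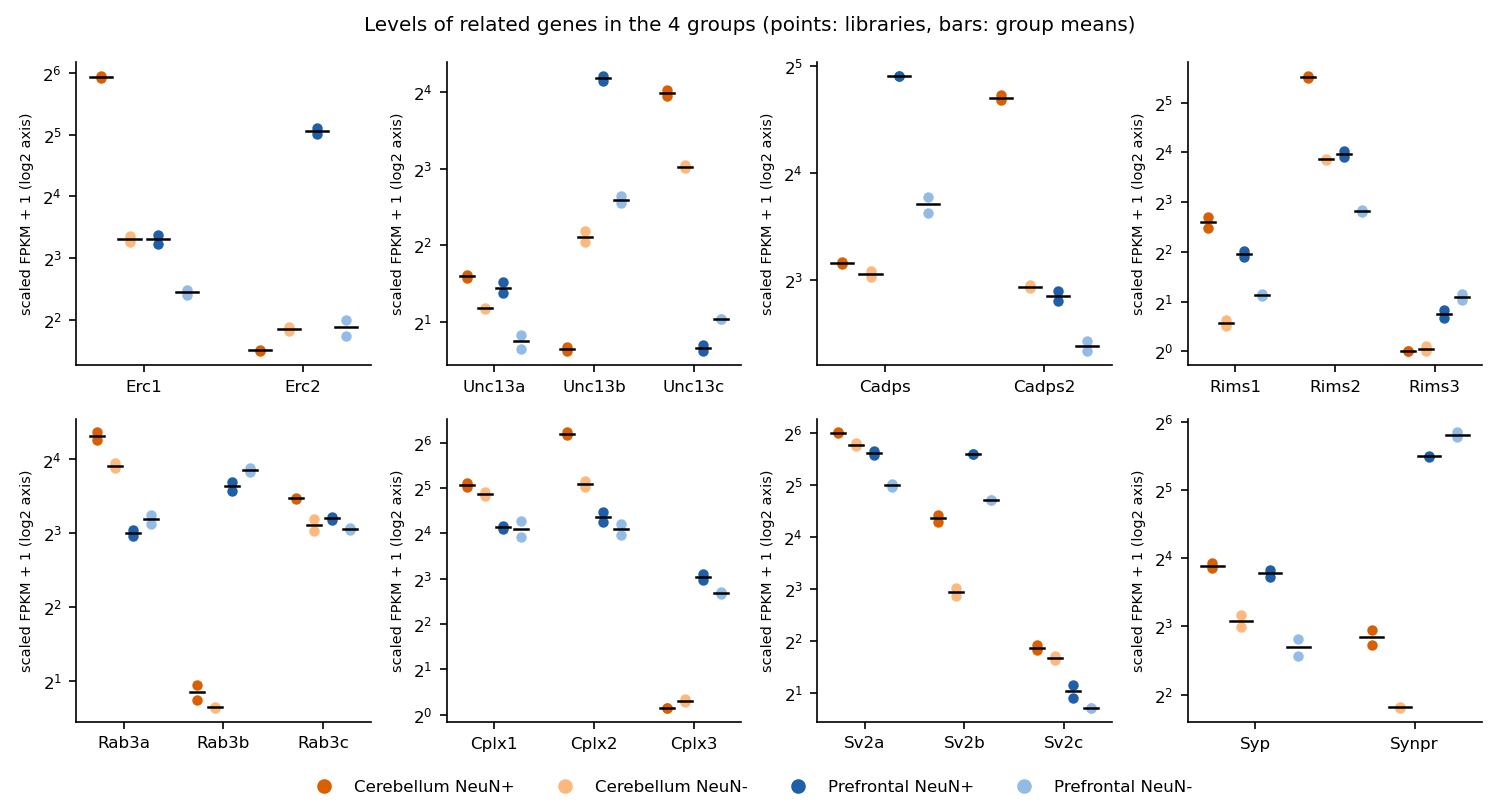
Levels of related genes as scaled FPKM + 1 on a log2 axis, in cerebellar NeuN+, cerebellar NeuN-, prefrontal NeuN+ and prefrontal NeuN- nuclei; points are libraries and bars are group means. In the Erc, Unc13 and Cadps panels the gene that is highest in cerebellar NeuN+ libraries is not the one that is highest in prefrontal NeuN+ libraries.

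The balance of synaptophysin and synaptoporin also differed. Syp made up 69.2% ± 1.91 of the pair in cerebellar NeuN+ nuclei and 22.4% ± 0.714 in prefrontal NeuN+ nuclei, and in NeuN- nuclei 74.8% ± 2.08 in cerebellum and 9.07% ± 1.5 in prefrontal cortex. Syp itself was not called between NeuN+ groups (0.11, 95% interval -0.14 to 0.36), so the shift went with Synpr (chr14:14117294-14447983 on mm9), which was 6.29-fold lower in cerebellar NeuN+ nuclei (log2 difference -2.65, SE 0.08, adjusted p = 4.44e-07) and 15.9-fold lower in cerebellar NeuN- nuclei (log2 difference -4.00, SE 0.08, adjusted p = 1.93e-07). Sv2b made up 22.9% ± 1.19 of the Sv2 genes in cerebellar NeuN+ nuclei and 49.1% ± 0.806 in prefrontal NeuN+ nuclei, against Sv2a shares of 74.0% ± 0.920 in cerebellar NeuN+ nuclei and 49.8% ± 1.07 in prefrontal NeuN+ nuclei. Sv2b was 2.36-fold lower (log2 difference -1.24, SE 0.07, adjusted p = 6.92e-06) and Sv2a 1.31-fold higher in cerebellar NeuN+ nuclei (log2 difference 0.39, SE 0.05, adjusted p = 0.000302). Syngr3 was 2.84-fold lower (log2 difference -1.51, SE 0.05, adjusted p = 6.23e-07).

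Complexins and SNARE proteins differed between regions as well. Cplx2 had 74.1 and 71.3 scaled FPKM in cerebellar NeuN+ nuclei, against 21.1 and 18.1 in prefrontal NeuN+ nuclei (3.58-fold higher; log2 difference 1.84, SE 0.10, adjusted p = 6.22e-06), and Cplx1 was 1.92-fold higher (log2 difference 0.94, SE 0.11, adjusted p = 0.000259). Cplx3 made up 16.8% ± 2.1 of complexin FPKM in prefrontal NeuN+ nuclei, where it had 6.87 and 7.65 scaled FPKM, and was 7.48-fold lower in cerebellar NeuN+ nuclei (log2 difference -2.90, SE 0.08, adjusted p = 2.98e-07). Stx1a showed the largest regional difference of the 43 genes in NeuN+ nuclei: it had 0.265 and 0.146 scaled FPKM in cerebellar NeuN+ nuclei, against 22.2 and 19.5 in prefrontal NeuN+ nuclei (18.1-fold lower; log2 difference -4.18, SE 0.12, adjusted p = 4.07e-07). It was 4.13-fold lower in cerebellar NeuN- nuclei (log2 difference -2.05, SE 0.12, adjusted p = 7.73e-06). Vamp1 had 3.90 and 3.35 scaled FPKM in cerebellar NeuN+ nuclei, against 0.456 and 0.443 in prefrontal NeuN+ nuclei (3.19-fold higher; log2 difference 1.67, SE 0.11, adjusted p = 1.08e-05), and its share of the pair was 13.7% ± 1.76 in cerebellar NeuN+ nuclei and 4.64% ± 0.459 in prefrontal NeuN+ nuclei. Vamp2 had 22.1 and 23.5 scaled FPKM in cerebellar NeuN+ nuclei, against 8.74 and 9.83 in prefrontal NeuN+ nuclei (log2 difference 1.21, SE 0.13, adjusted p = 0.000172).

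Snap25, Napa and Sh3gl2 differed more between regions in the NeuN- gate than in the NeuN+ gate. Snap25 was 3.63-fold lower in cerebellar NeuN- nuclei (log2 difference -1.86, SE 0.06, adjusted p = 6.43e-07) and 1.33-fold lower in cerebellar NeuN+ nuclei (log2 difference -0.41, SE 0.06, adjusted p = 0.000464). Napa had 58.2 and 63.6 scaled FPKM in cerebellar NeuN- nuclei, against 239 and 252 in prefrontal NeuN- nuclei (3.99-fold lower; log2 difference -1.99, SE 0.06, adjusted p = 5.12e-07), and was 1.86-fold lower in cerebellar NeuN+ nuclei (log2 difference -0.90, SE 0.06, adjusted p = 9.99e-06). Sh3gl2 had 37.6 and 39.4 scaled FPKM in cerebellar NeuN- nuclei, against 104 and 110.3 in prefrontal NeuN- nuclei (2.73-fold lower; log2 difference -1.45, SE 0.05, adjusted p = 1.02e-06), while in NeuN+ nuclei it was not called (-0.12, 95% interval -0.24 to -0.00). For each of these 3 genes the regional difference of the NeuN+ change given above, which is the same quantity as the difference between gates of these regional changes, was called. Rph3a had 13.4 and 14.1 scaled FPKM in cerebellar NeuN- nuclei, against 4.04 and 3.90 in prefrontal NeuN- nuclei (2.96-fold higher; log2 difference 1.57, SE 0.05, adjusted p = 1.11e-06), beside the log2 difference of 1.27 between the NeuN+ groups given above. Rims3, listed at 0 in both cerebellar NeuN+ libraries, had 0.597 and 0.775 scaled FPKM in prefrontal NeuN+ nuclei. Among the genes of vesicle retrieval, Dnm1 was 2.45-fold higher in cerebellar NeuN+ nuclei (log2 difference 1.29, SE 0.07, adjusted p = 4.42e-06) and Synj1, which encodes the phosphatase synaptojanin, 1.30-fold lower (log2 difference -0.37, SE 0.04, adjusted p = 0.00026); Amph, Snap91 and Sh3gl2 were not called in NeuN+ nuclei. In NeuN- nuclei the small decreases of Amph (-0.15) and Snap91 (-0.21) turned positive with a common FPKM sum and with quantile normalization, and that of Synj1 (-0.12) turned positive with a common FPKM sum. Leaving out 1 library ended the call for Amph in 3 cases (prefrontal NeuN- replicate 1 or either cerebellar NeuN- library), for Snap91 in 1 (cerebellar NeuN- replicate 1) and for Synj1 in all 8.

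Other presynaptic genes outside the 44 were listed for comparison, 35 in all, of which 28 were tested. In prefrontal cortex 19 rose in NeuN+ nuclei (67.9%, where 35.0% of all features rose) and 6 fell (21.4%, where 37.6% of all features fell). There 3 were not called, and the median was 0.43. In cerebellum 13 rose (46.4%, where 32.4% of all features rose) and 8 fell (28.6%, where 39.2% of all features fell). There 7 were not called, and the median was 0.22. The calcium sensor Syt1 rose by 0.58 in prefrontal cortex and 1.43 in cerebellum on the log2 scale. Its relative Syt2, the fast calcium sensor of hindbrain synapses, was 12-fold higher in cerebellar than in prefrontal NeuN+ nuclei (adjusted p = 2.81e-07). Bin1, an amphiphysin relative also used outside neurons, fell in NeuN+ nuclei by 0.82 in prefrontal cortex and by 0.53 in cerebellum on the log2 scale.

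Widely expressed relatives of the 44 genes were also listed, 18 in all, of which 17 were matched and 15 tested. In prefrontal cortex 4 rose in NeuN+ nuclei (26.7%), 8 fell (53.3%) and 3 were not called, with a median of -0.24 and a median absolute difference of 0.94, where that of the 43 genes was 0.51. In cerebellum 5 rose (33.3%), 5 fell (33.3%) and 5 were not called, with a median of 0.11. The shares of all features are those given above for each region, and the difference between the lists was not tested. Vamp8, an endosomal SNARE, was 7.34-fold lower in prefrontal NeuN+ nuclei (adjusted p = 1.53e-05) and 2.00-fold lower in cerebellar NeuN+ nuclei (adjusted p = 0.00235). Syngr2, the synaptogyrin of non-neuronal cells, was 5.54-fold lower in prefrontal NeuN+ nuclei (adjusted p = 1.85e-06) and 4.36-fold lower in cerebellar NeuN+ nuclei (adjusted p = 3.35e-06). Stx3, a syntaxin of ribbon synapses and epithelia, went the other way, 4.98-fold higher in prefrontal NeuN+ nuclei (adjusted p = 4.05e-07) and 2.18-fold higher in cerebellar NeuN+ nuclei (adjusted p = 6.39e-06).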

How the data were processed

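RNA of sorted nuclei was read as FPKM, which the authors deposited in 1 gene-level table per library, with confidence limits and a status per feature, per the file headers. Tools listed in the submitters' processing notes are Cufflinks, Bismark, TopHat2 2.1.1, Bowtie 1.1.1 and Trim Galore 0.3.7, with the builds mm9 and hg19 and no roles; annotation and strand use: not given in the sources used here. Gene positions are those of the tables, 1-based, on mm9. FPKM carries no counts: implied fragments were whole numbers, within 0.05, for only 50.0 to 53.4% of values, so depth per library is unknown and no count model was used. Relative depth, read from the confidence limits, differed by up to 1.51 times, and FPKM summed to 289350 to 426851 per library.

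FPKM were multiplied by median-of-ratios factors from the 9109 features that reached 1 FPKM in every library. The 14376 features that reached 1 FPKM in 2 or more libraries were fitted as log2(scaled FPKM + 1) with limma 3.58.1 in R 4.3.3, with the variance trend, 4 group means, 4 residual degrees of freedom, two-sided tests and Benjamini-Hochberg adjustment within each comparison at 0.05. The 44 genes and the other lists were chosen with earlier results of these data known. Any of the 44 could be named; full statistics went to relatives within a family and to at most 8 called genes per direction whose higher group averaged 5 scaled FPKM or more. Alternatives were 3 other scalings, pseudocounts of 0.1 and 0.5, 2 other filters, no variance trend, only the groups compared, a replicate block, features with an OK status, and each library left out. Promoter windows were RefSeq sequences on GRCm38.p6, matched by symbol. Some genes of the other lists are not reported here by name.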

Additional observations from a re-analysis of the deposited data

Results flagged for a closer look

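For 33 of the 43 tested genes (76.7%, near the 70.1% of all 14376 features called), the NeuN+ minus NeuN- change in cerebellum differed from that in prefrontal cortex by the test of that difference itself (limma, adjusted p under 0.05). Differences are cerebellar change minus prefrontal change on the log2(scaled FPKM + 1) scale, each from 8 libraries of 1 mouse. No cause was tested. For 21 of the 33 the call held under each alternative; for Bsn, Cplx3, Dnm1, Doc2a, Napb, Nsf, Rab3b, Rph3a, Stxbp5, Sv2a, Synj1 and Vamp1 at least 1 alternative ended it. Leaving out a library did so for Bsn, Doc2a, Nsf, Rab3b, Stxbp5 and Vamp1: the libraries were prefrontal NeuN+ replicate 1 (Nsf, Stxbp5, Vamp1) and 2 (Bsn, Nsf, Rab3b, Vamp1), prefrontal NeuN- replicate 1 (Bsn, Rab3b, Vamp1) and 2 (Bsn, Doc2a, Stxbp5, Vamp1), cerebellar NeuN+ replicate 1 (Bsn, Nsf, Vamp1) and 2 (Bsn, Doc2a, Rab3b), and cerebellar NeuN- replicate 1 (Doc2a, Rab3b, Stxbp5) and 2 (Bsn, Nsf, Rab3b, Vamp1).

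Among active zone and priming genes, the difference was 1.77 for Erc1, 1.30 for Cadps2, 1.34 for Unc13c, 1.19 for Rims1, 0.57 for Pclo, 0.52 for Rims2 and 0.26 for Bsn. It was -3.52 for Erc2, -3.05 for Unc13b and -1.1 for Cadps. Among SNARE proteins and their regulators, it was 1.45 for Snap25, 1.1 for Napa, 0.84 for Cplx2, 0.41 for Vamp1 and 0.30 for Napb. It was -2.13 for Stx1a, -0.62 for Doc2a, -0.53 for Cplx3, -0.46 for Stxbp5 and -0.27 for Nsf. Among vesicle membrane proteins and synapsins, it was 1.37 for Syngr1, 1.34 for Synpr, 1.26 for Syn1 and 0.54 for Sv2b. It was -1.65 for Syn3, -0.90 for Syngr3 and -0.39 for Sv2a. Among the Rab3 group and the genes of retrieval, it was 1.33 for Sh3gl2, 0.58 for Rab3a, 0.43 for Rab3b and 0.42 for Dnm1, and -0.30 for Rph3a and -0.25 for Synj1.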

How the results depend on the processing

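Of the calls, 25 of 36 in the prefrontal gate comparison, 28 of 33 in the cerebellar one, 35 of 37 between regions in NeuN+ nuclei, 35 of 40 in NeuN- nuclei and 21 of 33 for the regional difference kept direction and threshold under every alternative that tested them. The number of genes lower in prefrontal NeuN+ nuclei was 8, but 5 with a common FPKM sum and 4 with quantile normalization. The number lower in cerebellar NeuN+ nuclei was 5, but 3 with quantile normalization, and 3 to 5 with 1 library left out (3 without cerebellar NeuN+ replicate 1 and 3 without cerebellar NeuN- replicate 2). The number with a smaller change in cerebellum was 13, but 7 with no scaling. Signs turned for Napa (0.026) and Sh3gl2 (0.0068) in prefrontal cortex with quantile normalization; between regions in NeuN- nuclei, for Amph (0.14), Snap91 (0.080) and Synj1 (0.16) with a common sum and for Amph (0.059) and Snap91 (0.0088) with quantile normalization. The median of all features moved with scaling: in the prefrontal gate comparison it was -0.01, -0.19 with no scaling and 0.14 with a common sum; between regions in NeuN- nuclei 0.02, -0.13 and 0.26; for the regional difference -0.06, 0.13 and -0.23; in the cerebellar gate comparison -0.04 and 0.07 with quantile normalization. Of all calls in the prefrontal gate comparison 48.2% were higher, against 36.0% with no scaling and 59.9% with a common sum; in NeuN- nuclei 51.0% against 42.6% with no scaling and 62.1% with a common sum; for the regional difference 47.2% against 57.6% with no scaling and 37.7% with a common sum. Causes were not tested. Labels do not say what libraries with the same replicate number share. Their deviations hardly correlated (-0.04 to 0.03), which cannot show whether they were handled together. With the replicate block 28 rose and 8 fell in prefrontal cortex and 27 rose and 5 fell in cerebellum. The block ended the calls of Syn2 in the cerebellar gate comparison and of Amph and Synj1 between regions in NeuN- nuclei. It also ended that of the regional difference of Bsn. Having 2 libraries of 1 mouse per group and unknown depth limits all values.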

Other observations

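Of the 43 tested genes, 20 (46.5%) had a span of at least 100 kb on mm9, as had 13.0% of all features tested. In prefrontal cortex the median NeuN+ minus NeuN- log2 difference was 0.52 for these 20 and 0.27 for the 23 shorter genes, against 0.21 and -0.04 for all features above and below that span. In cerebellum it was 0.52 for the long genes and 0.40 for the shorter ones, against -0.08 and -0.03 for all features. These are descriptions of the libraries with no test.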
